A study of Mus musculus with 9 samples.

Results

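The genes described here are 36 regulators and effectors of apoptosis, out of 757 genes counted in CD45+ CD11b+ cells, labelled microglia, that were sorted from the mouse brain after a transient ischemic attack (TIA). They were chosen by symbol and not by their values: the BCL2 family, caspases other than Casp1, the inhibitors of apoptosis, and death receptors with their adaptors. All 36 symbols were found in the table. The groups were Sham, TIA 24h and TIA 3d, with 3 mice each; TIA mice were sampled 24 h or 3 d after the attack, and the sampling time of Sham is not given in the sources used here. The methods describe wild-type C57BL6/J mice of 10 to 12 weeks, and males for this experiment. TIA was a 5 min occlusion of the middle cerebral artery by a filament; Sham mice had the same surgery without the filament, so all 3 groups shared anesthesia, neck surgery and ligation. Brains were dissociated with papain after placement in a salt solution with actinomycin D, which blocks transcription. Live cells positive for CD45 and CD11b were sorted, a gate that also admits blood-derived myeloid cells. Probes of a neuroinflammation panel were then counted on an nCounter instrument, which counts barcoded molecules without amplification.

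Apoptosis is run by 2 routes that meet at the caspases, proteases that dismantle the cell. In the mitochondrial route, BH3-only proteins release the pore formers BAX and BAK from anti-apoptotic BCL2 proteins, and the cytochrome c that leaks out activates caspase-9. In the receptor route, FAS or TRAIL receptors recruit FADD and caspase-8, which c-FLIP (the product of Cflar) holds in check. Much of the receptor machinery, RIPK1, TRAF proteins and cIAPs among it, also carries survival and inflammatory signals, and sorted live cells report the transcripts of these regulators rather than death itself.

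Counts of the apoptosis genes were low, and whether the lowest lie above background is not known, since negative control probes were not analysed here. Summed over the 36 genes they came to 297 to 614 (Sham), 297 to 369 (TIA 24h) and 786 to 1389 (TIA 3d), or 2.21% to 4.53% of a lane. The whole lanes held 6560 to 25582 counts (Sham), 7248 to 10929 (TIA 24h) and 29200 to 62883 (TIA 3d), so that every TIA 3d lane was deeper than any other, and depth and the TIA 3d group cannot be told apart. Across all lanes 12 of the 36 genes stayed under 20 counts, among them Bcl2, Fas, Fadd and Casp9, and 12 exceeded 20 counts in every TIA 3d lane. Microglial markers did not lead in every group. The summed normalized level of 11 microglial markers was 328 to 4330 (Sham), 223 to 657 (TIA 24h) and 2630 to 3580 (TIA 3d), and that of 10 oligodendrocyte markers was 130 to 939, 351 to 934 and 104 to 173. At TIA 24h the oligodendrocyte markers took 2.40% to 5.43% of a lane and the microglial ones 1.63% to 3.82%, ranges that overlap. Their median counts in a lane were 14.5 to 20 and 10 to 31. In Sham the shares of a lane were 0.532% to 5.77% and 2.55% to 17.7%. At TIA 24h these markers do not clearly bear out the label. No marker of any list was at 0, but the lowest count in the table is 1, so this separates no cell type. The part of these shifts in the results below was not tested. In such bulk samples, fewer cells of a type and less RNA per cell cannot be told apart.

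For most of the apoptosis genes, no difference between groups passed the test against the spread of the animals. Over the 3 groups, the moderated F test in limma was passed by 0 of the 36 genes (adjusted p under 0.05 over all 757 genes; smallest among the 36, 0.0533), and by 0.0% of all genes. At an unadjusted p under 0.05 there were 7 of them (Bcl2a1a, Bik, Casp9, Tradd, Cflar, Cidea and Dapk1), or 19.4%, against 31.0% of all genes. The ordinary linear model also gave 0, voom on the recovered counts 8 (22.2%, against 38.8% of all genes) and array weights 13 (36.1%, against 38.6%).

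Between the time points, 3 genes passed: Bcl2a1a rose from TIA 24h to TIA 3d, and Bik and Casp9 fell. These are 2.78% of the 36 genes in the upward direction, where 11.6% of all genes passed, and 5.56% in the downward direction, where 7.53% did. In either direction the shares were 8.33% and 19.2%. At an unadjusted p under 0.05 there were 11, or 30.6%, against 40.2%. Values of the groups did not overlap for 7 genes higher at TIA 3d (19.4%, against 22.1% of all genes) and for 10 lower (27.8%, against 26.3%).

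The median log2 difference of the 36 genes between the time points was -0.17, beside -0.25 for all 757. Its sign depended on scaling, with 0.17 after median centring, 0.15 after quantile normalization, 0.34 with the total count as a covariate and -1.11 with lane totals. The sides on which calls fell depended on scaling. When samples were centred on their medians, the median of all genes moved to 0.09 and the calls were 3 higher (Bcl2a1a, Xiap and Cflar) and 0 lower, or 8.33% against 19% of all genes. With scaling to lane totals it moved to -1.19, with 1 higher (Bcl2a1a) and 11 lower, or 33.3% against 45.4%. The 11 were Bcl2l2, Bik, Cycs, Casp9, Tnfrsf10b, Tradd, Ripk1, Traf1, Cidea, Cideb and Dapk1. None of the 36 was called after quantile normalization (7 of all genes were), with the total count as a covariate or in the ordinary linear model (0 of all genes in both). In voom on the recovered counts, which also scales to the lane total, the median of all genes was -1.30 and the calls were 0 higher and 17 lower, or 47.2% against 50.9%, with Bcl2, Bad, Casp2, Fas, Ripk2 and Trp53 added to those 11. Array weights called 13, or 36.1% against 41.5%: Bcl2a1a, Casp8, Xiap, Cflar and Bcl10 as higher and Bik, Casp9, Fas, Tnfrsf10b, Tradd, Cidea, Cideb and Dapk1 as lower.

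**Figure D1:**
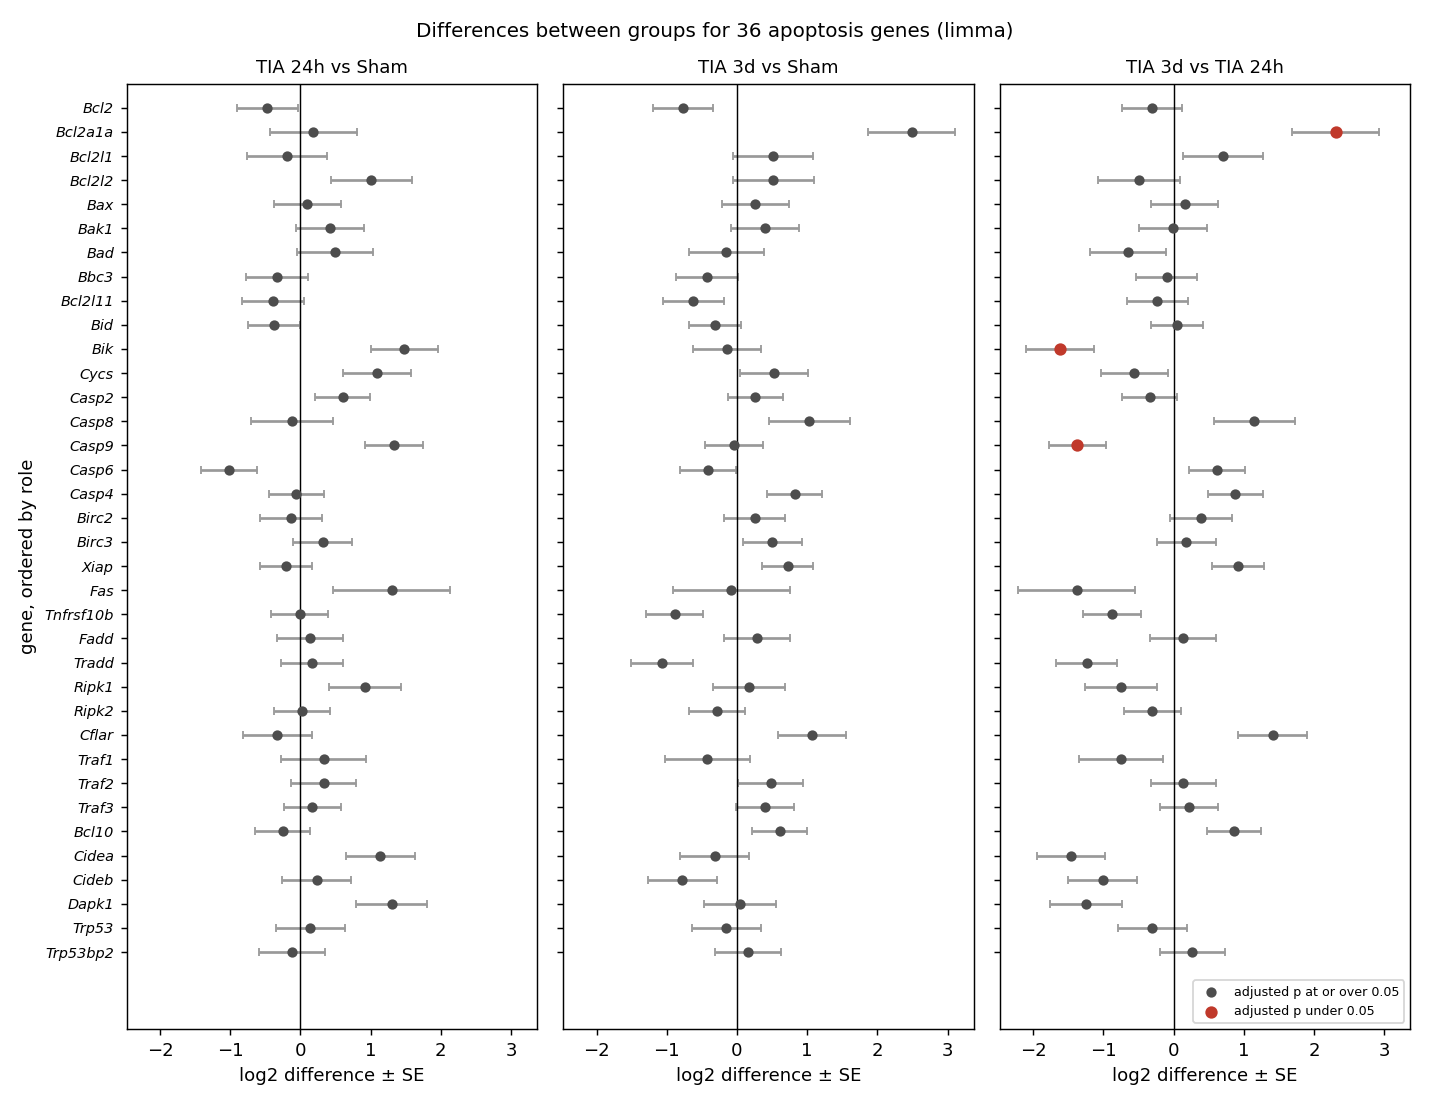
Log2 difference (x axis, bars are the SE) of each of the 36 genes, ordered by role, for TIA 24h vs Sham, TIA 3d vs Sham and TIA 3d vs TIA 24h. Red points passed an adjusted p of 0.05; the only 3 are Bcl2a1a at 2.31, Casp9 at -1.37 and Bik at -1.62, all between the time points.

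Against Sham, 0 of the 36 genes passed in limma at either time point, and 0.0% of all genes did. The median difference was 0.16 at TIA 24h (all genes, 0.15) and 0.16 at TIA 3d (all genes, -0.01). Neither sign was stable. The first was -0.03 after median centring (all genes, -0.03), -0.09 after quantile normalization (all genes, -0.02) and -0.06 without Sham replicate 2 (all genes, 0.13). The second was -0.59 with lane totals (all genes, -0.77) and -0.54 in voom (all genes, -0.72). At TIA 24h, 6 genes had an unadjusted p under 0.05, or 16.7%, against 7.53% of all genes: Bik, Cycs, Casp9, Cidea and Dapk1 with higher values and Casp6 with lower ones. The smallest adjusted p was 0.628, and neither voom nor any other model or scaling tried gave a call. Groups did not overlap for 5 genes with higher values (13.9%, against 8.06% of all genes) and for Bid and Casp6 with lower values (5.56%, against 1.72%). At TIA 3d, 4 genes had an unadjusted p under 0.05, or 11.1%, against 19.6%: Bcl2a1a and Cflar with higher values, Tnfrsf10b and Tradd with lower. Their adjusted p values were 0.114 to 0.25. Groups did not overlap for Bcl2a1a, Casp4, Xiap, Traf3 and Bcl10 on the higher side (13.9%, against 15.1%) and for Bcl2, Tnfrsf10b and Tradd on the lower side (8.33%, against 9.11%). Voom gave 0 calls at TIA 3d against Sham and array weights 6 (Bcl2a1a, Cycs, Casp4, Cflar and Traf2 higher, Tnfrsf10b lower; 16.7%, against 23% of all genes). Without Sham replicate 1, the deepest Sham lane, there were 2, Bcl2a1a (3.18, adjusted p = 0.00815) and Cflar (1.62, adjusted p = 0.0365), or 5.56% against 11.1% of all genes.

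Of the anti-apoptotic BCL2 genes, Bcl2a1a was the gene that rose. It encodes A1, a short-lived BCL2 relative of blood-lineage cells that is known as an NF-kB target. Its log2 values were 6.15, 4.59, 3.56 (Sham), 5.70, 4.21, 4.92 (TIA 24h) and 7.31, 6.69, 7.77 (TIA 3d). All 3 TIA 3d animals lay above the other 6, while Sham and TIA 24h overlapped. The difference between the time points was 2.31 (SE 0.62, adjusted p = 0.0308 in limma), and against Sham the values were 0.18 (SE 0.62) for TIA 24h and 2.49 (SE 0.62, adjusted p = 0.114) for TIA 3d. It had more counts than the genes that fell in the TIA 3d lanes, with 74, 22, 6 counts (Sham), 33, 10, 16 (TIA 24h) and 283, 121, 397 (TIA 3d). The microglial markers moved with it, 10 of 11 passing in the same direction with a median difference of 2.86. Bcl2a1a was past the threshold no longer without TIA 24h replicate 2 (1.95, adjusted p = 0.102) or 3 (2.30, 0.0931) or TIA 3d replicate 1 (2.28, 0.0936) or 3 (2.06, 0.106). With the total count as a covariate its difference was -0.67 (adjusted p = 0.973), after quantile normalization 1.10 (adjusted p = 0.303), and in voom 1.23 (adjusted p = 0.114).

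Mouse Bcl2a1 exists in near-identical copies, and the window before the start of the gene shows how close they are. It is printed for Bcl2a1a (chr9:88956670-88956919, + strand) and its copy Bcl2a1d (chr9:88731851-88732100, - strand), beside that of Casp9 (chr4:141793362-141793611, + strand), which fell. Each holds the 250 bases before the annotated start, from RefSeq on GRCm38.p6. Capitals mark GAGGAAGT, the core of sites of PU.1 (the ETS factor of macrophages and microglia), in the Bcl2a1 windows, and GGGCGG, the GC box of SP1, in the Casp9 window. The Bcl2a1 windows also hold GGGCGG on the other strand (ccgccc), which is left unmarked, so the GC box does not set Casp9 apart.
Bcl2a1a: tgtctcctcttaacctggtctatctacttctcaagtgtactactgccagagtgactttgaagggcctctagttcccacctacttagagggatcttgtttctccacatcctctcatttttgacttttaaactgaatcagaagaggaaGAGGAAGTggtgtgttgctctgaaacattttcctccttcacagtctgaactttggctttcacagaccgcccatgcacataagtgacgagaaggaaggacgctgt
Bcl2a1d: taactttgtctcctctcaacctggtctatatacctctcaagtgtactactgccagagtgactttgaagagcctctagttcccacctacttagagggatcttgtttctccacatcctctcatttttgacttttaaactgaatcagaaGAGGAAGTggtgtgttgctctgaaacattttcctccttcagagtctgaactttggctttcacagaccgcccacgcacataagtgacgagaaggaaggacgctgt
Casp9: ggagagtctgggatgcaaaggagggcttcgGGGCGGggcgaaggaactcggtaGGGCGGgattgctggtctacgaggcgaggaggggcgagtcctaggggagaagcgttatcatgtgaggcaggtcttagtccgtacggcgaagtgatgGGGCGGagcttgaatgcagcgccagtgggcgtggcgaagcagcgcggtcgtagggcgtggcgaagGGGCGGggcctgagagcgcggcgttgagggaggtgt
The Bcl2a1a and Bcl2a1d windows aligned over 250 columns with 95.2% identity, Bcl2a1a and Bcl2a1b over 206 with 99.5%, and Bcl2a1a and Bcl2a1c over only 140 with 94.3%. Of these copies, the table holds Bcl2a1a, and the share of its counts that came from the others was not tested. GAGGAAGT, searched on both strands, stood in 2.44% of all 32851 windows of this length and in those of 3 of the 31 apoptosis genes with a window (Bcl2a1a, Bak1 and Bad). GGGCGG stood in 32.7% of all windows and in those of 21 of the 31 genes, Bcl2a1a and Casp9 among them, with 4 copies before Casp9. The 31 genes had 42 windows, and a gene was counted if any of its windows matched. For every motif, counts of genes and percentages of all windows are therefore unlike measures. The NF-kB consensus stood in 7.25% of windows and in those of Bbc3, Bcl10, Bcl2l1, Casp4 and Traf3, and TATAAA in 12.4% and in those of Cflar, Cideb, Trp53 and Xiap. Matches of each motif were counted on both strands whether or not they overlapped another motif, and they are matches of letters, not binding sites.

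The other anti-apoptotic genes did not pass in any comparison. Bcl2, the founding member, had log2 values of 3.52, 3.13, 3.97 (Sham), 3.24, 3.47, 2.51 (TIA 24h) and 2.75, 3.09, 2.45 (TIA 3d). All TIA 3d values lay below Sham, by -0.77 (SE 0.43, adjusted p = 0.304), but the counts were only 3 to 12 in any lane. For Bcl2l1, which encodes BCL-XL, the values were 4.33, 4.13 and 3.30, then 5.05, 2.89 and 3.24, then 4.03, 4.16 and 5.13. TIA 24h replicate 1 had 21 counts and the other 2 animals of that group 4 and 5, so this group overlapped both others. Bcl2l2 (BCL-W) was at 2.61 ± 1.42 (SD, n = 3) in Sham, where replicate 3 had 1 count, 3.62 ± 0.13 at TIA 24h and 3.13 ± 0.11 at TIA 3d.

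**Figure D2:**
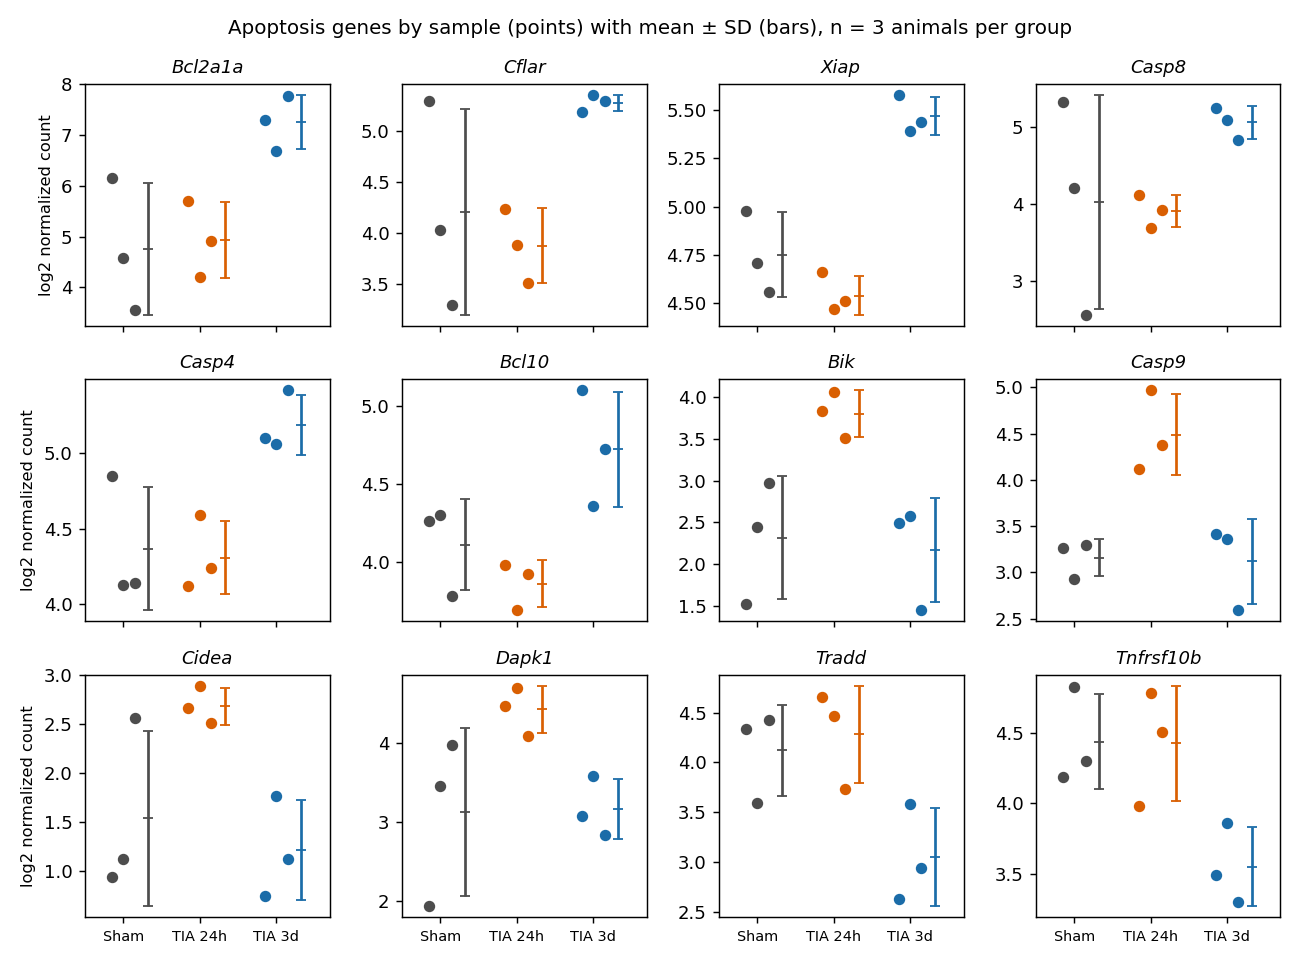
Log2 normalized count (y axis) of 12 apoptosis genes in each animal (points), with mean ± SD of 3 animals per group beside them. All 3 TIA 3d animals lie above the TIA 24h animals for the 6 genes from Bcl2a1a to Bcl10 and below them for the 6 from Bik to Tnfrsf10b. Only genes without overlap between the time points are shown, so the figure does not show how common this was. Of the 36 genes, 19.4% were higher without overlap (all genes, 22.1%) and 27.8% lower (all genes, 26.3%). Of the 12 shown, Bcl2a1a, Bik and Casp9 passed the test.

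Bax and Bak1, which encode the pore formers of the outer mitochondrial membrane, did not pass in any comparison. Bax had log2 values of 3.40, 2.45, 3.56 (Sham), 3.98, 3.21, 2.51 (TIA 24h) and 3.56, 3.68, 2.94 (TIA 3d), and the groups overlapped throughout. Its difference between the time points was 0.16 (SE 0.48) and that of Bak1 -0.01 (SE 0.48). At TIA 24h against Sham these were 0.10 and 0.42, with adjusted p values of 0.974 and 0.835.

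Among the BH3-only genes, whose products sense stress and switch the pore formers on, Bik fell between the time points. Its log2 values were 1.52, 2.45, 2.97 (Sham), 3.83, 4.06, 3.51 (TIA 24h) and 2.49, 2.58, 1.45 (TIA 3d). TIA 24h stood above both other groups without overlap. The difference was -1.62 (SE 0.48, adjusted p = 0.0385) between the time points and 1.48 (SE 0.48, adjusted p = 0.628) for TIA 24h against Sham. Before scaling there were 9, 9 and 6 counts in the TIA 24h lanes against 10, 7 and 5 in those of TIA 3d, which overlap, and 3 to 10 in every lane although lane totals ran from 6560 to 62883. One count was worth 1.58 to 1.89 normalized units in the TIA 24h lanes and 0.548 to 0.853 in those of TIA 3d, so that near-equal counts gave lower scaled values at TIA 3d. The part of background counts in this difference was not tested. At such counts Bik was near the 12 blood leukocyte markers, whose median in a lane was 7.0 to 8.5 counts in the TIA 24h lanes against 9.0 to 12.5 in those of TIA 3d. Markers of other cells also fell between the time points: 5 of 10 for oligodendrocytes, 1 of 4 for astrocytes, 2 of 6 for endothelium, 2 of 12 for blood leukocytes and 0 of 10 for neurons passed, all downward, with list medians of -0.76 to -1.46. The summed level of the leukocyte markers was 101 to 177 (Sham), 165 to 170 (TIA 24h) and 65.2 to 123 (TIA 3d), and none was at 0. Their part in the result was not tested.

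Bcl2l11, which encodes BIM, had log2 values of 3.40, 4.21, 4.14 (Sham), 2.98, 3.89, 3.73 (TIA 24h) and 3.07, 2.94, 3.89 (TIA 3d), with overlap between all groups. Bid, the link from caspase-8 to the mitochondria, was at 4.94 ± 0.10, 4.58 ± 0.17 and 4.63 ± 0.25 (SD, n = 3) in the order Sham, TIA 24h, TIA 3d; all TIA 24h animals were below Sham, by -0.37 (SE 0.37, adjusted p = 0.807). Bad and Bbc3, which encodes the p53 target PUMA, differed by -0.65 (SE 0.54) and -0.10 (SE 0.44) between the time points and passed in no comparison. Cycs, the cytochrome c gene, had 3.40, 2.13, 3.97 (Sham), 3.98, 4.69, 4.09 (TIA 24h) and 3.63, 3.86, 3.59 (TIA 3d). TIA 24h lay above Sham by 1.09 (SE 0.48, adjusted p = 0.647) without overlap, although its lowest animal, at 3.98, and the highest Sham animal, at 3.97, were almost equal. Without Sham replicate 2 this difference was 0.57.

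Of the caspases, Casp9 was the one that passed. Casp9 is the initiator that cytochrome c activates; its log2 values were 3.26, 2.93, 3.30 (Sham), 4.12, 4.97, 4.38 (TIA 24h) and 3.42, 3.36, 2.59 (TIA 3d). TIA 24h stood above the other 6 animals. The difference was -1.37 (SE 0.41, adjusted p = 0.0418) between the time points and 1.33 (SE 0.41, adjusted p = 0.628) for TIA 24h against Sham. As for Bik, counts overlapped, with 11, 17 and 11 in the TIA 24h lanes against 19, 12 and 11 in those of TIA 3d. Both calls depended on the lanes used. With each of the 9 lanes left out in turn, Bik passed without Sham replicate 1 or 3 or TIA 3d replicate 2, and adjusted p values ran from 0.0172 to 0.149. Casp9 passed without Sham replicate 1 or 3, with 0.0259 to 0.152. After median centring they were at -1.28 (adjusted p = 0.0573) and -1.03 (0.0892), after quantile normalization at -1.18 (0.169) and -1.16 (0.172). Under the total count covariate, Bik was at -0.00 (adjusted p = 0.997) and Casp9 at -0.87 (0.973). Scaled to lane totals both passed, at -2.57 (adjusted p = 0.0114) and -2.32 (0.00986).

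Casp8, the initiator of the receptor route, had log2 values of 5.33, 4.21, 2.56 (Sham), 4.12, 3.69, 3.92 (TIA 24h) and 5.25, 5.09, 4.83 (TIA 3d). All TIA 3d animals were above those of TIA 24h, by 1.15 (SE 0.58, adjusted p = 0.153), while Sham spanned both groups with 42, 17 and 3 counts. Casp8 passed with array weights and without Sham replicate 3. Casp4 encodes mouse caspase-11, which senses lipopolysaccharide in the cytosol and cleaves gasdermin D. It was at 4.85, 4.13, 4.14 (Sham), 4.12, 4.59, 4.24 (TIA 24h) and 5.10, 5.06, 5.42 (TIA 3d). The TIA 3d animals were above all others, by 0.88 against TIA 24h (SE 0.39, adjusted p = 0.116) and 0.82 against Sham (adjusted p = 0.268); scaled to the lane total the first was -0.07. Casp6, an executioner, was at 3.11, 3.45, 4.14 (Sham), 2.66, 2.47, 2.51 (TIA 24h) and 2.87, 3.23, 3.38 (TIA 3d). TIA 24h had the lowest values, with 3 or 4 counts, -1.02 below Sham (SE 0.40, adjusted p = 0.647). Casp2, an initiator tied to DNA damage, differed by 0.26 to 0.60 from Sham and by -0.34 between the time points, with adjusted p values of 0.539 to 0.723.

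The 3 inhibitors of apoptosis had their highest means at TIA 3d, and none passed. Xiap, whose product blocks caspases directly, had log2 values of 4.98, 4.71, 4.56 (Sham), 4.66, 4.47, 4.51 (TIA 24h) and 5.58, 5.39, 5.44 (TIA 3d). TIA 3d stood above all 6 other animals, by 0.92 against TIA 24h (SE 0.37, adjusted p = 0.0837) and 0.72 against Sham (SE 0.37, adjusted p = 0.28). It passed after median centring (1.26, adjusted p = 0.0326) with a pseudocount of 10 (0.70, adjusted p = 0.0285) and with array weights (0.98, adjusted p = 0.0226), and stood at -0.03 when scaled to the lane total. Birc3, which encodes cIAP2, a ubiquitin ligase of the TNF receptor complex, was at 3.85, 2.93 and 3.30, then 3.24, 4.06 and 3.73, then 4.21, 3.58 and 3.78, with overlap between all groups. Birc2 (cIAP1) was at 4.38 ± 0.49 (SD, n = 3), 4.24 ± 0.53 and 4.63 ± 0.37 in Sham, TIA 24h and TIA 3d.

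Both death receptors were lower in all TIA 3d animals than in any of TIA 24h, and neither passed. Fas was at log2 values of -0.06, 3.45, 4.14 (Sham), 3.66, 3.69, 4.09 (TIA 24h) and 1.75, 2.94, 2.59 (TIA 3d). Sham replicate 1, a deep lane, held 1 count of Fas against 10 and 9 in the other Sham lanes, which gave Sham an SD of 2.25. Between the time points the difference was -1.38 (SE 0.83, adjusted p = 0.226), on 7 to 9 and 6 to 11 counts. Fas passed with array weights, in voom and without Sham replicate 1. Tnfrsf10b, the mouse TRAIL receptor, was at 4.19, 4.83, 4.30 (Sham), 3.98, 4.79, 4.51 (TIA 24h) and 3.49, 3.86, 3.30 (TIA 3d). TIA 3d lay below the other 6 animals, by -0.88 against TIA 24h (SE 0.41, adjusted p = 0.124) and -0.89 against Sham (SE 0.41, adjusted p = 0.247). Its counts were 10 to 15 in the TIA 24h lanes against 17 to 20 in those of TIA 3d, so that before scaling the TIA 3d lanes held more. It passed with lane totals (-1.82, adjusted p = 0.0164), array weights (-0.95, 0.0398) and voom (-1.87, 0.00589).

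None of the adaptors below the receptors passed. Cflar, the caspase-8 inhibitor, had log2 values of 5.30, 4.03, 3.30 (Sham), 4.24, 3.89, 3.51 (TIA 24h) and 5.19, 5.36, 5.30 (TIA 3d). The TIA 3d animals agreed within an SD of 0.08 and lay above TIA 24h, by 1.41 (SE 0.49, adjusted p = 0.0588), which did not pass. Cflar passed after median centring (1.74, adjusted p = 0.0337), without the low genes (0.0495), with a pseudocount of 10 (0.98, 0.0421), with the intensity trend (0.0342) and with array weights (1.39, 0.0101), without Sham replicate 1 (adjusted p = 0.0233) and without Sham replicate 3 (0.0263), and was at -0.39 with the total count as a covariate. Tradd, which links TNF receptor 1 to RIPK1, was at 4.33, 3.59, 4.43 (Sham), 4.66, 4.47, 3.73 (TIA 24h) and 2.63, 3.58, 2.94 (TIA 3d). TIA 3d was below the other 6 animals, by -1.24 against TIA 24h (SE 0.44, adjusted p = 0.0611) and -1.07 against Sham (adjusted p = 0.209), on 7 to 16 counts in the TIA 24h lanes against 11 to 14 in those of TIA 3d. Between the time points Tradd passed with lane totals (-2.18, adjusted p = 0.0114), the intensity trend (-1.24, 0.0442), array weights (-1.40, 0.0115) and voom (-2.31, 0.00335), and without Sham replicate 1 (0.0498) or 3 (0.0472).

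Fadd, which bridges receptors to caspase-8, was at 2.26, 2.71, 3.56 (Sham), 2.24, 3.21, 3.51 (TIA 24h) and 2.87, 3.36, 3.13 (TIA 3d), with overlap throughout. Ripk1, the kinase that decides between survival and death below TNF receptor 1, was at 3.40, 1.71 and 3.56, then 3.66, 4.06 and 3.73, then 2.75, 2.77 and 3.66. TIA 24h lay above Sham, by 0.92 (SE 0.51, adjusted p = 0.722), on 7 to 9 counts, and its lowest animal equalled the highest of TIA 3d at 2 decimals. Ripk2, the NOD receptor kinase, was at 4.53 ± 0.40, 4.54 ± 0.10 and 4.25 ± 0.38 (SD, n = 3) in that order. The TRAF adaptors Traf1, Traf2 and Traf3 differed by -0.75, 0.14 and 0.22 between the time points, with adjusted p values of 0.362 to 0.844. Bcl10, which couples immune receptors to NF-kB, was at 4.26, 4.30, 3.78 (Sham), 3.98, 3.69, 3.92 (TIA 24h) and 5.10, 4.36, 4.72 (TIA 3d). Its TIA 3d animals were above all others, by 0.86 against TIA 24h (SE 0.39, adjusted p = 0.119), and it passed with array weights (1.03, adjusted p = 0.0254).

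**Figure D3:**
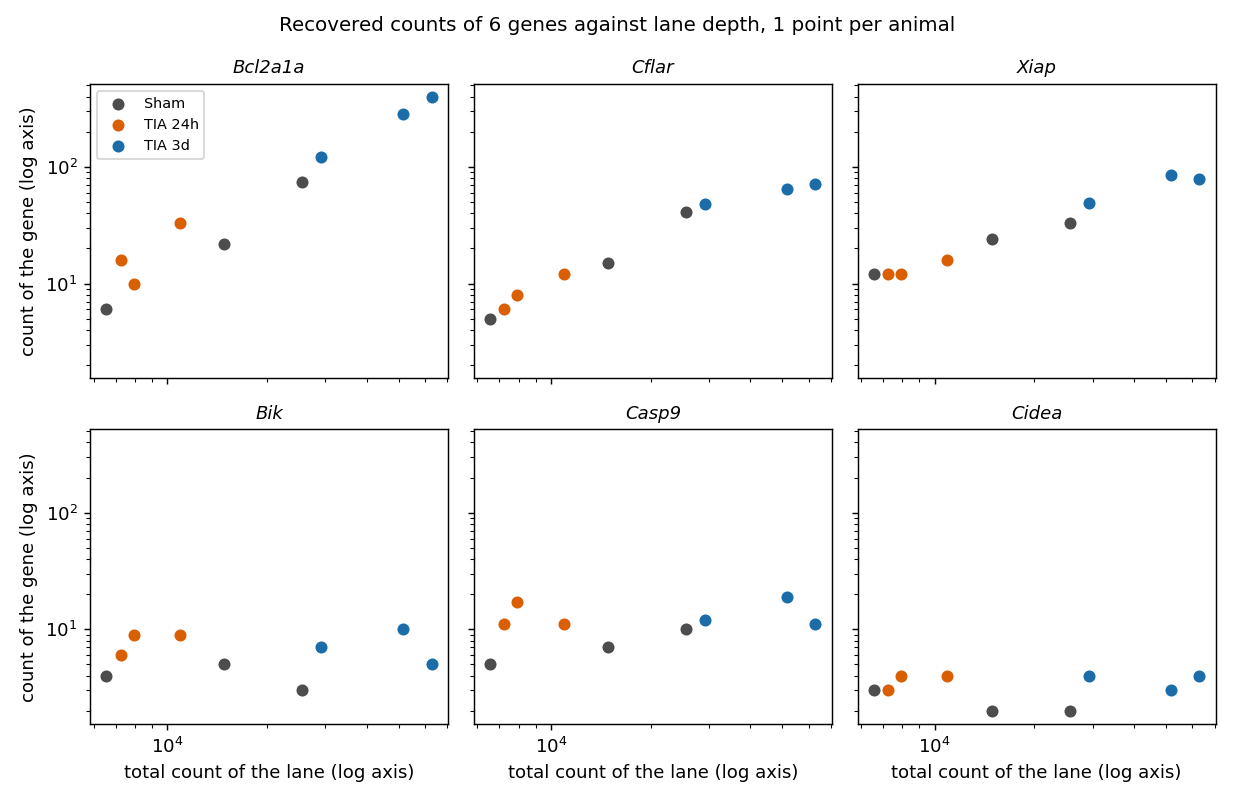
Recovered count of 6 genes (y axis, log scale) against the total count of the lane (x axis, log scale), 1 point per animal. Bcl2a1a, Cflar and Xiap have 121 to 397, 48 to 72 and 49 to 85 counts in the deep TIA 3d lanes, while Bik stays at 3 to 10, Casp9 at 5 to 19 and Cidea at 2 to 4 in all lanes.

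The remaining genes did not pass either. Cidea, better known from lipid droplets of fat than from microglia, held 2 to 4 counts in every lane. Its log2 values were 0.94, 1.13, 2.56 (Sham), 2.66, 2.89, 2.51 (TIA 24h) and 0.75, 1.77, 1.13 (TIA 3d). TIA 3d lay below TIA 24h without overlap, and Sham overlapped both. The difference between the time points was -1.46 (SE 0.49, adjusted p = 0.0506). Cideb was at 3.71 ± 0.50 (SD, n = 3), 3.94 ± 0.46 and 2.93 ± 0.82. Dapk1, a calmodulin-dependent kinase that promotes death, was at 1.94, 3.45, 3.97 (Sham), 4.46, 4.69, 4.09 (TIA 24h) and 3.07, 3.58, 2.83 (TIA 3d). TIA 24h was above both other groups, by 1.30 over Sham (SE 0.51, adjusted p = 0.647) and with TIA 3d lower by -1.25 (SE 0.51, adjusted p = 0.0919), on 9 to 14 and 13 to 15 counts. Between the time points Cidea and Dapk1 both passed with lane totals (adjusted p = 0.0128 and 0.0197), array weights (0.00496 and 0.0168), voom (0.00802 and 0.00508) and without Sham replicate 1 (0.0327 and 0.0346). Cidea also passed without Sham replicate 3 (0.0163) or TIA 3d replicate 2 (0.0499). Under the total count covariate their differences were 0.37 and 0.72. Trp53, the p53 gene, was at 4.03, 2.71 and 4.56, then 4.12, 3.89 and 3.73, then 3.69, 4.02 and 3.13, and its partner gene Trp53bp2 differed by 0.27 (SE 0.47) between the time points. Both overlapped between all groups.

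Ratios of opposing genes within a lane do not depend on the normalization factor of that lane, but background counts do not cancel in them. Bcl2 held 3 to 12 counts and Bax 3 to 21 in any lane, and the part of background was not tested. For 3 ratios, the groups were compared by an exact permutation test of the F statistic over the 3 groups (280 distinct splits, smallest possible p = 0.00357). The log2 ratio of Bax to Bcl2 was -0.13, -0.68, -0.42 (Sham), 0.74, -0.26, 0.00 (TIA 24h) and 0.81, 0.58, 0.49 (TIA 3d). All TIA 3d animals were above Sham, by 1.03 in the mean, and TIA 24h overlapped both. The exact permutation p was 0.0429, and 0.129 after adjustment over the 3 ratios, so that it did not pass; without TIA 24h replicate 1 the adjusted value was 0.0429. For Casp8 to Cflar, the group means were -0.17, 0.03 and -0.22 (exact permutation p = 0.693, adjusted 0.693), although both genes had their highest means at TIA 3d. For Bcl2l11 to Bcl2l1 they were 0.00, -0.19 and -1.14 (exact permutation p = 0.375, adjusted 0.562), with an SD of 1.64 at TIA 24h. All TIA 3d animals, at -0.95, -1.22 and -1.25, were below Sham, at -0.93, 0.09 and 0.85, by -1.14 in the mean. The nearest values, -0.95 and -0.93, were almost equal.

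**Figure D4:**
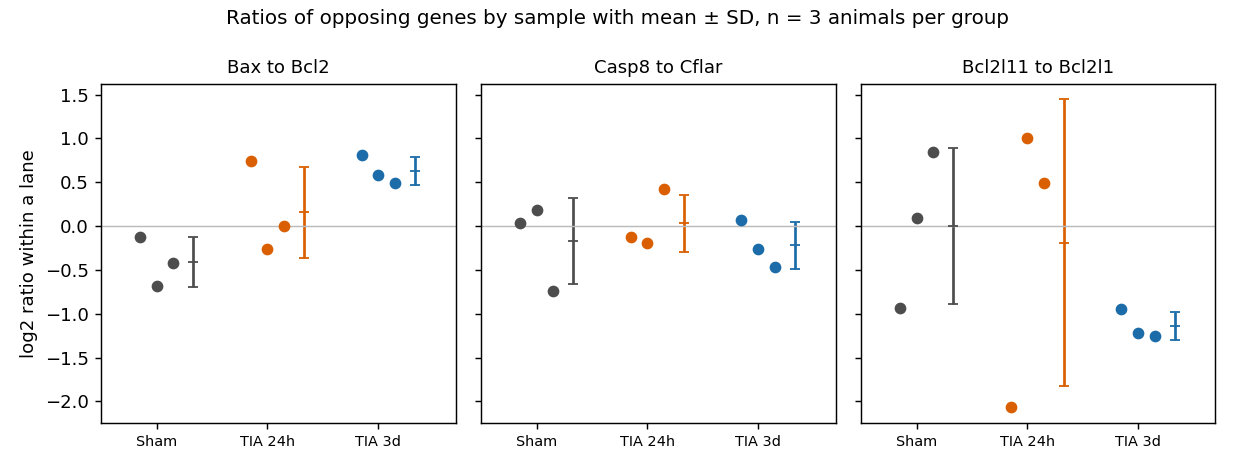
Log2 ratio of 2 genes within a lane (y axis) in each animal (points), with mean ± SD of 3 animals per group beside them. The Bax to Bcl2 ratio of the TIA 3d animals lies at 0.49 to 0.81, above the Sham animals at -0.68 to -0.13. Casp8 to Cflar overlaps between groups. Bcl2l11 to Bcl2l1 lies at -1.25 to -0.95 at TIA 3d, below Sham at -0.93 to 0.85, and runs from -2.07 to 1.00 at TIA 24h.

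Further genes of the pathway, 79 in a list, were looked up beside the 36, and 52 were in the table. Of these, 0 passed against Sham at either time point, while between the time points 7 rose and 4 fell. These are 13.5% and 7.69% of the 52, close to the 11.6% and 7.53% of all genes. The 7 were Tnfrsf1a (1.30), which encodes TNF receptor 1, the NF-kB subunits Rela (2.19) and Nfkb2 (1.62), the inhibitor Nfkbia (1.89) and the AP-1 subunit Jun (2.35), with the inflammasome sensor Nlrp3 (1.52) and the p53 target Sesn1 (1.94). The 4 were the BCL2 relative Bok (-1.62), the sensor Zbp1 (-1.39), Sesn2 (-1.58) and the checkpoint kinase Chek1 (-1.85). Adjusted p values in limma were 0.0232 to 0.0497. As for Bik, the 4 lower genes had overlapping counts, none above 15 in any lane. The list of death ligands and further receptors had 1 call among 10 genes, survival signalling 4 among 15, p53 targets and DNA damage 3 among 11, necroptosis and pyroptosis 2 among 4, further BCL2 genes 1 among 6, and the apoptosome, executioners and DNA fragmentation 0 among 6.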

How the data were processed

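RNA of sorted CD45+ CD11b+ cells of 9 mice, labelled microglia, was counted with the nCounter neuroinflammation panel. The deposited table holds normalized counts on a log2 scale, which the authors obtained in ROSALIND by scaling every lane to the geometric mean of its housekeeping probes, chosen by geNorm. Once the log2 was undone, all values of a lane (100%, within 0.01 counts) were whole multiples of 1 number, which gave back the counts. The lowest count was 1. The methods exclude genes below the highest negative control, but whether this was done for the deposited table, or counts of 0 were raised to 1, is not given in the sources used here, so low counts may not lie above background. All 757 genes were fitted in limma 3.58.1 (R 4.3.3; a mean per group, 9 samples, no covariate, prior degrees of freedom 7.23) with a moderated F test and two-sided contrasts, adjusted by Benjamini-Hochberg over all genes (threshold 0.05). Differences and SEs are on the log2 scale. Ratios were tested in Python 3.11.15 by exact permutation, one-sided in F. Groups came from the sample titles, with 3 animals in each. The code was tested on simulated data.

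The 36 genes, the pathway and marker lists and the naming rule were chosen with earlier results of these data known. Given with a value in every sample were genes past the threshold, genes at an unadjusted p under 0.05 and 14 set by name. The others have means or differences, and further pathway genes have values only where they passed. Alternatives covered scaling, filter, pseudocount, model, replicate block and left-out samples. Promoter windows of 31 of the 36 genes were found in RefSeq (GRCm38.p6).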

Additional observations from a re-analysis of the deposited data

Results flagged for a closer look

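For 3 genes (8.33% of the 36, against 19.2% of all genes), TIA 24h and TIA 3d had unequal effects relative to Sham, by the contrast of TIA 3d with TIA 24h in limma. With each lane left out in turn, the contrast passed in 5 (Bcl2a1a), 3 (Bik) and 2 (Casp9) of 9 fits. Both effects share the Sham animals, whose mean cancels in this contrast. No effect of these genes against Sham passed (adjusted p = 0.114 to 0.959 in limma). For Bcl2a1a the effects were 0.18 and 2.49, a gap of 2.31, with 3 of 3 animals higher at TIA 3d. For Bik they were 1.48 and -0.14, a gap of -1.62, and for Casp9 1.33 and -0.04, a gap of -1.37, each lower in 3 of 3 animals.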

How the results depend on the processing

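Calls between the time points depended on the processing. Against 3 calls in the reported analysis, there were 0 after quantile normalization, with the total count as a covariate and in the ordinary linear model, 5 with a pseudocount of 10 and with an intensity trend and robust prior (13.9%, against 19.4% and 23.4% of all genes), 12 scaled to the lane total, 13 with array weights and 17 in voom. Calls over all genes moved too, from 145 to 344, 314 and 385 of 757 under the last 3. Leaving out 1 sample gave 0 to 8 (8 are 22.2%, against 29.9%). Leaving out Sham replicates 1 and 3, chosen after seeing the data, left 1 Sham sample, so its calls are not counted here. The median difference of the 36 genes from Sham was then 0.36 at TIA 24h and 0.30 at TIA 3d. Leaving out the genes below the 0.25 quantile of mean level left 28 of the 36 genes, of which 3 were called, Bcl2a1a, Cflar and Casp9 (10.7%, against 24.8% of the 568 genes left). Bik was removed by this filter and not retested. The F test, with 0, gave 1 after median centring, without the low genes, with the pseudocount and with the trend (2.78% to 3.57%, against 5.68% to 7.04% of all genes), 5 scaled to the lane total (13.9%, against 23.9%), 8 in voom, 13 with array weights, 0 to 4 without 1 sample (4 are 11.1%, against 16.6%) and 7 without Sham replicates 1 and 3 (19.4%, against 20.6%). In every alternative that called any of the 36, their share was below that of all genes, a difference that was not tested. For TIA 3d against Sham there were 6 with array weights and 0 to 2 without 1 sample, and for TIA 24h against Sham 0 in every alternative run. The Bax to Bcl2 ratio difference of TIA 3d and TIA 24h was 0.47 in the reported analysis. It ran from 0.26 to 0.76 without 1 sample and was 0.20 with a pseudocount of 10. This difference was not tested by itself. The exact permutation test of the ratio over the 3 groups passed without TIA 24h replicate 1 (adjusted p = 0.0429).

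Between the time points, 20 of the 36 signs turned with the total count as a covariate, and 13 each with lane totals and in voom. The median of all genes moved too, from -0.25 to -0.02 with the covariate, -1.19 with lane totals and -1.30 in voom. Turned signs over all genes were not counted. Of the genes named for their p, the covariate turned Bcl2a1a (-0.67), Cflar (-0.39), Cidea (0.37) and Dapk1 (0.72), and Cflar at TIA 3d against Sham (-0.23). Casp4, Xiap and Bcl10 turned when scaled to the lane total (-0.07, -0.03 and -0.09) and in voom (-0.08, -0.02 and -0.14). The cause was not tested. Of the 36 genes, 12 stayed under 20 counts in every lane.

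With the replicate number as a block, the F test gave 1 call (2.78%, against 7.13% of all genes) and the time points 3 (8.33%, against 18.5%), and no other call among the 36 changed. Deviations of same-numbered samples correlated from -0.237 to 0.271, and 5 of 9 samples correlated best with their own number, so the numbers were not treated as a pairing.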
